A study of Mus musculus with 8 samples.

Results

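Ribosomal protein pseudogenes were examined in the left ventricle of mice with and without a knockout of Nbdy (mORF4/NBDY KO and WT). Members were chosen by name and by a measured value: a GENCODE M21 symbol of the form Rpl or Rps, a number and -ps, and at least 1 count in any of the 8 libraries. This gave 163 genes of the 38293 identifiers in the count table. The table held 226 rows with such a name, of which 63 had no count in any library, and GENCODE M21 lists 289 such genes. Since the second criterion used the counts, the presence of reads in a member is no finding. Of the 163, 105 were named after genes of the large ribosomal subunit (Rpl) and 58 after genes of the small subunit (Rps), and they carried the names of 49 different ribosomal protein genes.

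All mice were untreated males of 8 weeks on a C57BL/6 background. The 4 WT libraries are numbered as replicates 1 to 4 and the 4 KO libraries as replicates 5 to 8. Polyadenylated RNA was sequenced from libraries made with a stranded kit. The labels describe neither the KO allele nor the cells that carry it, and they do not say that each library came from a separate animal, so the p-values below measure the spread between these libraries. Total counts per library ran from 11101901 to 14699949. Nbdy, checked first, held 208 to 248 counts per WT library but 115 to 137 per KO library (log2 difference -0.97 ± 0.11, SE, at an adjusted p of 0.0060 in edgeR). The 9 cardiomyocyte markers had mean levels of 564 to 23407 CPM (counts scaled to library size), and of 4 genes marking atrium, Sln, Myl7, Myl4 and Nppa had WT means of 0.16, 0.92, 5.10 and 400.2 CPM and KO means of 0.11, 0.46, 5.07 and 601.2 CPM.

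Ribosomal proteins are made from short, abundant mRNAs. During evolution such mRNAs were copied back into DNA by the reverse transcriptase of transposable elements and inserted elsewhere in the genome, where they form processed pseudogenes that lack introns and usually a promoter of their own. Recent copies still resemble the coding sequence of their source gene almost base for base, so that a short read from one can fit the other. A count on such a row may therefore come from the pseudogene, from its source gene or from another copy. The sources used here do not give the counting tool, the strand setting or the treatment of reads that map to several places, so every level below is uncertain to that extent.

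The sequences of 3 members show how little separates these rows from their source genes. Rpl39-ps, the member that rose in KO, is a processed pseudogene between genes on chromosome 15 (GRCm38, chr15:102635038-102635188, plus strand). Of its 151 bases, 150 align to the coding sequence of Rpl39, and 1 base differs. The difference is T96C, counted from 1 at the first base of the Rpl39 start codon, with the Rpl39 base first. It lies at the third position of codon 32 and leaves the amino acid the same. Sequences are from GENCODE M21, 5′ to 3′, with the differing base in capitals, and the pseudogene is shown over chr15:102635039-102635188.

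Rpl39: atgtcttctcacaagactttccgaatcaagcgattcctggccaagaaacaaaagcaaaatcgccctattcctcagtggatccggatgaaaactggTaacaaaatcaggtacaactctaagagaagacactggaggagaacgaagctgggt

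Rpl39-ps: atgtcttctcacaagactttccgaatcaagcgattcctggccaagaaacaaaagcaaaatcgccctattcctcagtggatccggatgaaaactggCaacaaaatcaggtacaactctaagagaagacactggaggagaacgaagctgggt

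Every read of Rpl39-ps that can be told from Rpl39 by sequence within this stretch must cover that base. Of all windows of 50 bases in the Rpl39-ps transcript, 49.0% were found in no other annotated transcript.

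Rps13-ps1 and Rps13-ps2, the other members that passed when no count filter was used, are copies of Rps13. Rps13-ps1 lies between genes on the plus strand of chromosome 8 (chr8:87047689-87048226), and its coding-like stretch differs from Rps13 by T411C and A429G, both at the third position of a codon and both leaving the amino acid the same. Its reading frame is open over 151 codons. Rps13-ps2, on the minus strand of chromosome 7 (chr7:88530446-88530898), is identical to Rps13 over its whole length. The last part of the coding sequence is shown because it holds both differences, which are in capitals. The Rps13-ps1 stretch is chr8:87048080-87048175 and that of Rps13-ps2 is chr7:88530446-88530538.

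Rps13: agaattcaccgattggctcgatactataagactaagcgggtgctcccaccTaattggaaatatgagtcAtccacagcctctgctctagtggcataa

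Rps13-ps1: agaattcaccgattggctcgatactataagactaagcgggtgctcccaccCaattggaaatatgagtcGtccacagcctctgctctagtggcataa

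Rps13-ps2: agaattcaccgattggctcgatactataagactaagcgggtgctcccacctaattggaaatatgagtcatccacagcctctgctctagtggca

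In Rps13-ps1, 12.1% of 50-base windows were found in no other transcript, and in Rps13-ps2 none were.

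Most members carried very few reads. The 163 rows held 30959 counts over the 8 libraries, and 5 members held 49.4% of them and 10 members 73.7%. Summed over the libraries, 27 members had at least 100 counts, 53 had at least 20, 84 had fewer than 10 and 27 had 1. A count in every library was found for 49 members. The annotation classes 153 as processed pseudogenes, 6 as transcribed processed pseudogenes and 4 as protein-coding (Rpl9-ps6, Rpl10-ps3, Rpl36a-ps1 and Rpl36-ps4). By position, 103 lay between genes, 54 in introns of other genes and 6 overlapped an exon of another gene. They were spread over 20 chromosomes, 17 of them on chromosome X. Rpl31, a protein near the exit of the peptide tunnel, had the most copies among these 163 members, which were kept for having a count, with 16, followed by Rpl21 with 10, Rps19 with 9 and Rps15a with 8.

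Members with many reads were closer to their source gene than members with few. Over the 160 members that aligned over most of their length, the median identity to the best-matching transcript of the gene in their name was 97.8% (gaps counted as differences), and the lowest was 75.2%. Among those with at least 100 counts the median was 99.5% (26 members) and 8 were identical to the source, whereas among those with fewer than 10 counts it was 96.7% (82 members) and 1 was identical. The share of 50-base windows found in no other transcript had a median of 16.9% in the first set and 53.4% in the second. Of the 27 members with at least 100 counts, 9 had no window of their own, even of 100 bases. A reading frame without a stop codon over at least 90% of the pseudogene's own length was found in 23 members of the first set and 60 of the second. By sequence, 161 members were closest to the gene in their name. Rpl13-ps1 had no extended match to Rpl13, and Rpl18-ps1 aligned to Rpl18 over 2.10% of its length. These relations are across genes, which share source sequences and libraries.

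**Figure D1:**
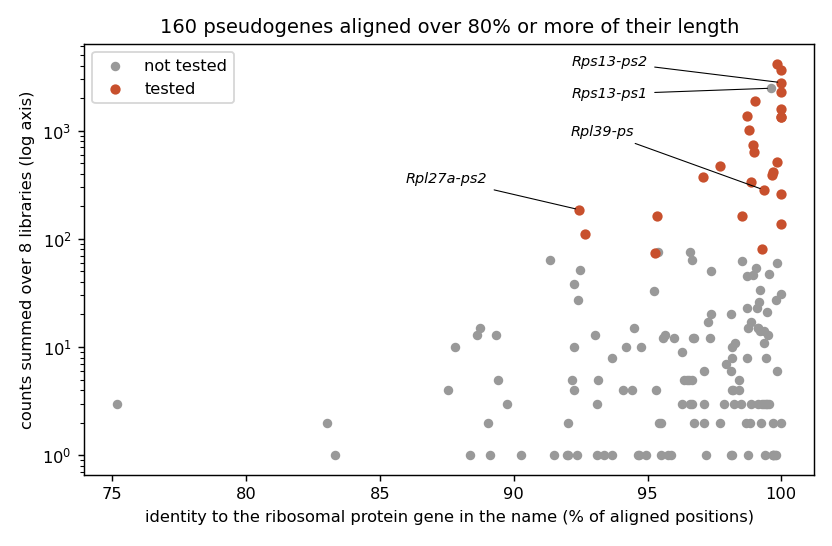
Each point is 1 of the 160 aligned pseudogenes, with its identity to the ribosomal protein gene in its name (% of aligned positions) on the x axis and its counts summed over the 8 libraries on a log y axis. Orange points passed the count filter and grey points did not. The members with at least 100 counts have identities of 92.4% or more, and the grey point near the top is Rps13-ps1.

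Per length, the order of levels differed between the genotypes. In WT, the highest mean levels were those of Rps13-ps1 (95.8 CPM per kilobase), Rpl31-ps8 (87.9; chr15:90764279-90764656), Rpl9-ps6 (59.2) and Rps24-ps3 (54.0). In KO, they were those of Rpl31-ps8 (100.8 CPM per kilobase), Rps13-ps2 (77.1), Rpl9-ps6 (57.3) and Rps16-ps2 (52.6), while Rps13-ps1 stood at 0.102. Rpl39-ps stood at 4.84 CPM per kilobase in WT and 32.0 in KO. Levels behind these orders spread widely between libraries. The WT mean of Rps13-ps1 came from replicates 2 to 4, with 56.1 to 75.1 CPM. WT replicate 1 had 0.0803 CPM on that row, beside 0 to 0.142 CPM in the KO libraries. Rpl9-ps6 had 42.2 ± 17.2 CPM in WT (SD, n = 4), with 236 counts in replicate 1 and 516 to 668 in replicates 2 to 4.

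As a group, the pseudogenes made up a like mean share of the reads in both genotypes, but the WT mean and SD included 1 library that stood apart. The share of library counts on the 163 rows was 0.0151%, 0.0400%, 0.0443% and 0.0319% for the WT libraries in replicate order, and 0.0273%, 0.0294%, 0.0307% and 0.0291% for the KO libraries. WT replicate 1 was below every KO library, and the other WT libraries were above every KO library. The mean was 0.0328% ± 0.0129 for WT (SD, n = 4) and 0.0291% ± 0.0014 for KO (SD, n = 4), a difference smaller than the spread between the WT libraries. Without Rps13-ps1 the means were 0.0275% ± 0.0093 and 0.0291% ± 0.0014 in the same order. The ribosomal protein genes themselves took 1.38% of counts in WT replicate 1, 1.53% to 1.76% in the other WT libraries and 1.38% to 1.51% in KO.

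WT replicate 1 had the lowest level of the 8 libraries for 20 of the 28 members that passed the count filter (71.4%). The same library was lowest for 13.8% of all 13336 genes tested, 25.6% of the 78 ribosomal protein genes and 27.7% of 282 other pseudogenes. Its level relative to the mean of the other WT libraries had a median of 0.393 over the 28 members (range 0.195 to 1.37), of 0.884 over the ribosomal protein genes and of 0.999 over all genes tested. The 9 members with no 50-base window of their own had a median of 0.399 and the other 19 a median of 0.380. Rpl27a-ps2, of which 89.3% of windows are its own, had the lowest ratio, with 6 counts in replicate 1 and 31, 38 and 19 in replicates 2 to 4. This library also had the highest share of mitochondrially encoded counts, 29.2%, where WT replicates 2 to 4 had 19.4% to 19.9% and the KO libraries 23.0% to 26.7%. The part of this in the members' levels was not tested.

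**Figure D2:**
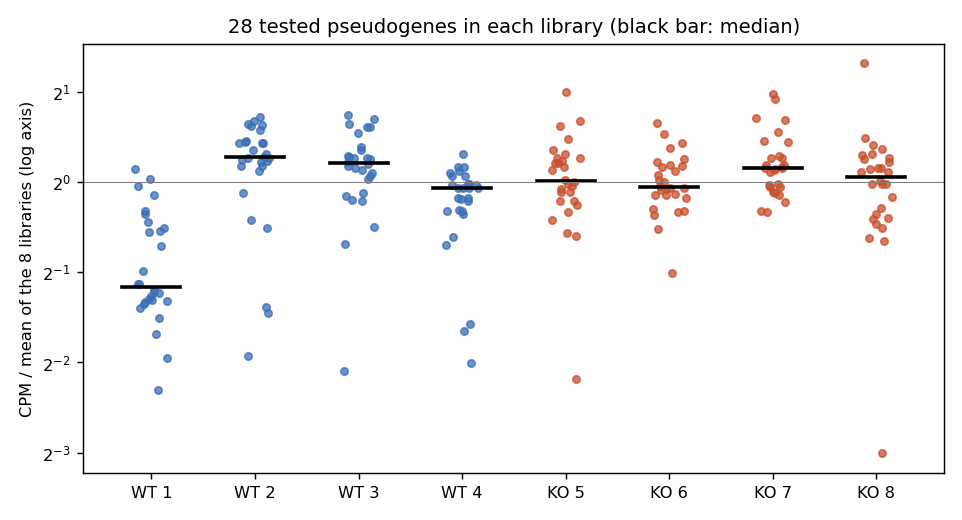
Each point is 1 of the 28 tested pseudogenes, as its CPM in a library divided by its mean over the 8 libraries, on a log axis. WT libraries are blue, KO libraries are orange and black bars are medians. The points of WT replicate 1 lie mostly below those of the other 7 libraries.

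The comparison of KO with WT asked whether loss of Nbdy, whose small protein is known to bind the mRNA decapping machinery, goes with other levels of these transcripts. Of the 28 tested members, 1 passed the threshold of an adjusted p of 0.05, Rpl39-ps, and it was higher in KO. Of all 13336 genes tested, 0.0225% passed, with 0.015% higher and 0.0075% lower. Without a count filter, 3 members passed (Rpl39-ps, Rps13-ps2 and Rps13-ps1), against 0.0464% of 21572 genes. Among the 28, 18 log2 fold changes were positive and 10 negative, from -0.42 to 2.72, with a median of 0.15 against -0.0032 over all genes tested. That median was -0.12 without WT replicate 1 (31 members tested) and 0.30 without WT replicate 2, so its sign changed with the WT library left out. At an unadjusted p under 0.05 there were 3 of 28 members, beside 6.4% of all genes, and 6 of 163 without a filter, beside 5.58%.

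All 4 KO values lay above all 4 WT values for 2 members, Rpl39-ps and Rps13-ps2, and below them for none. Over all genes tested the groups did not overlap in 4.12%, with KO above in 2.14% and below in 1.98%. The 28 members held 86.9% of the member counts, and passing the filter itself depended on reads in enough libraries. Rpl39-ps met the filter through its KO libraries, with 51 to 79 counts each, since its WT libraries held 7 to 11. The 1 call in the main test was thus of a row kept for its KO levels. The other 135 members were not tested. The median SE of a log2 fold change was 0.31 over the 28 members and 0.16 over all genes.

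**Figure D3:**
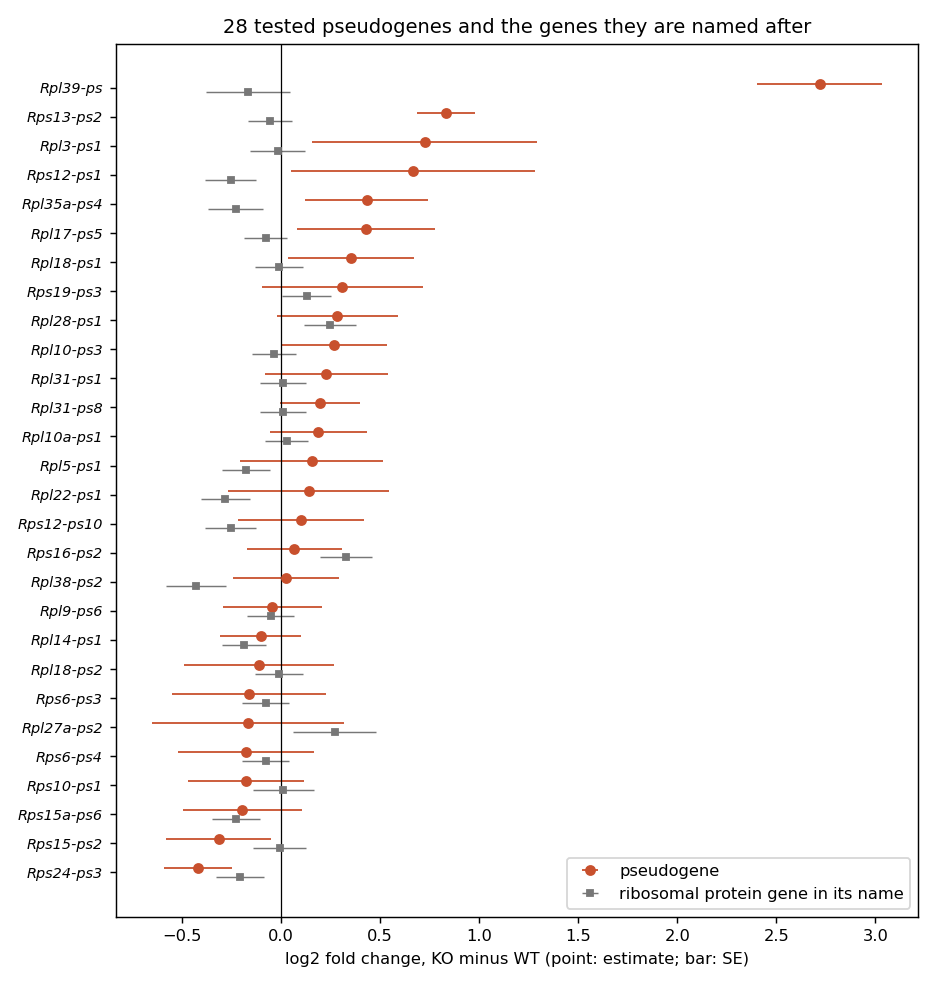
Log2 fold changes (KO minus WT, x axis) with SE bars for the 28 tested pseudogenes in orange and for the ribosomal protein gene each is named after in grey. Rpl39-ps stands at 2.72 and its neighbour Rps13-ps2 at 0.83, and the other members lie between -0.42 and 0.72. Rpl18-ps1 is drawn with Rpl18, the gene in its name, to which little of its sequence aligned.

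Rpl39-ps rose in KO, while Rpl39, which encodes a small protein of the large subunit that lines the peptide exit tunnel, did not pass. The Rpl39-ps row had 7, 11, 8 and 9 reads in WT and rose to 61, 51, 58 and 79 in KO, in replicate order. Every KO library was above every WT library. The mean level of Rpl39-ps was 0.730 ± 0.197 CPM (SD, n = 4) without the knockout and 4.84 ± 1.44 CPM (SD, n = 4) with it. On the log2 scale this is a rise of 2.72 ± 0.32 (SE), for which edgeR gave an adjusted p of 0.0060. Leaving out any 1 library gave values from 2.50 to 2.90 and adjusted p-values from 0.011 to 0.047 in edgeR.

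For Rpl39 itself the counts by replicate were 948, 1923, 2179 and 1587 among WT libraries and 1698, 1688, 1665 and 1410 among KO libraries. The WT libraries lay on both sides of the KO libraries, and edgeR gave a log2 fold change of -0.17 ± 0.21 (SE) at an adjusted p of 0.907. Of the reads on either row, Rpl39-ps took 0.558% ± 0.150 (SD, n = 4) in WT libraries and 3.77% ± 1.05 (SD, n = 4) in KO libraries, with the lowest KO share at 2.93% and the highest WT share at 0.733%. With the 2 rows added together as 1 gene, the log2 fold change was -0.12 (adjusted p = 0.938 in edgeR), a sum of which Rpl39 makes up nearly all reads.

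Of 13350 genes that were tested or had at least 100 counts summed, those whose log2 CPM was most like that of Rpl39-ps over the 8 libraries were Chac1 (Pearson r 0.955), Rapgef1 (0.949), Atoh8 (0.945), Klhl38 (0.930) and Gbf1 (0.921). Chac1, an enzyme that breaks down glutathione, had 2.41 to 3.46 CPM in WT and 5.73 to 8.75 CPM in KO. These correlations are descriptions over libraries that share the same 2 groups.

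**Figure D4:**
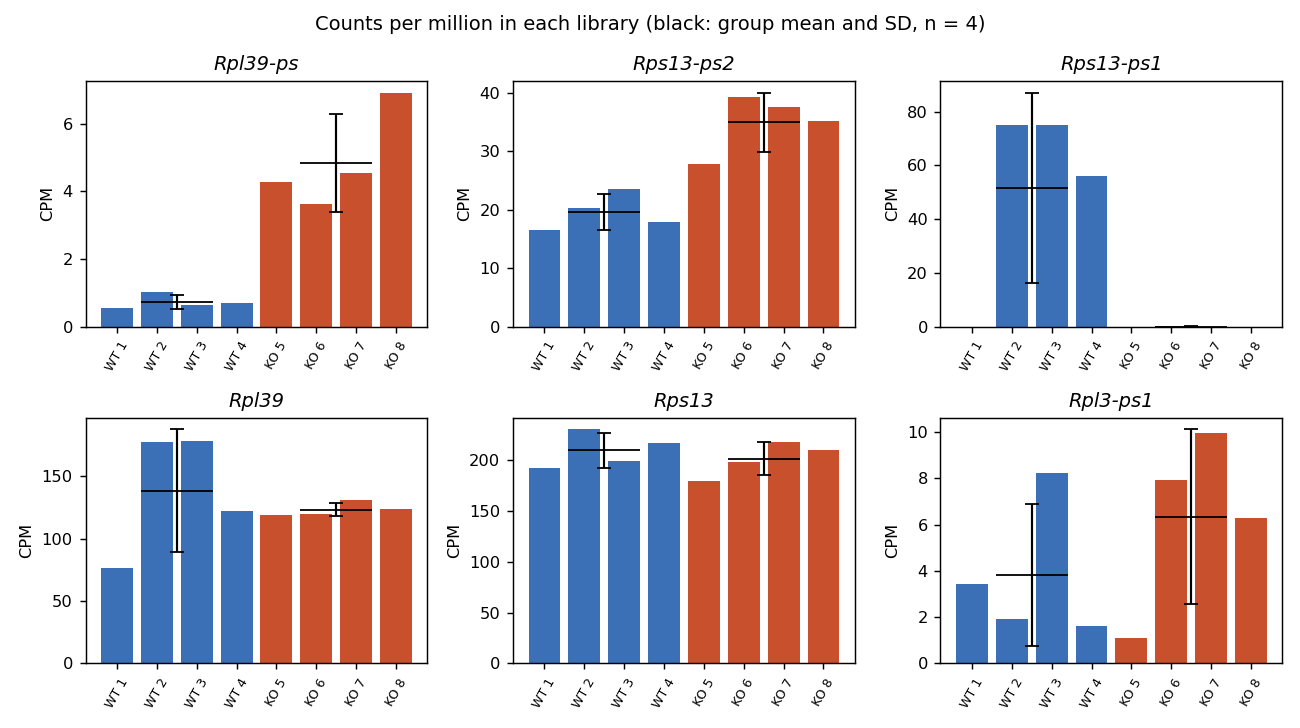
Bars give CPM in each library for Rpl39-ps, Rps13-ps2, Rps13-ps1, Rpl39, Rps13 and Rpl3-ps1, with WT replicates in blue and KO replicates in orange, and black marks give the group mean and SD (n = 4). Rpl39-ps and Rps13-ps2 are higher in all KO libraries, and Rps13-ps1 is present in WT replicates 2 to 4 and near 0 in the other 5 libraries. Each panel has its own y axis from 0.

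Rps13, a small-subunit protein, has 2 pseudogenes with many reads. Rps13-ps2 was higher in every KO library than in any WT library but did not pass in the main test. Its row had 207, 221, 289 and 233 reads in WT against 397, 554, 478 and 402 in KO, or 19.6 ± 3.08 against 34.9 ± 5.06 CPM (SD, n = 4 each). In edgeR this was a log2 difference of 0.83 ± 0.15 (SE) at an adjusted p of 0.172. DESeq2 gave an adjusted p of 0.000897, and edgeR without a count filter gave 0.013. Of the reads on Rps13 and Rps13-ps2, the pseudogene took 7.61% to 10.6% in WT and 13.4% to 16.5% in KO.

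Rps13 had 2398, 2497, 2433 and 2827 reads in WT against 2568, 2795, 2777 and 2401 in KO, a log2 difference of -0.06 ± 0.11 (SE). The groups overlapped. With Rps13 and Rps13-ps2 added as 1 row, the log2 fold change was 0.04 (adjusted p = 0.961 in edgeR).

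Rps13-ps1 was nearly absent from KO but also from 1 WT library. In replicate order, the WT libraries had 1, 815, 917 and 731 reads on this row and the KO libraries 0, 2, 1 and 0. WT replicate 1 thus stood with the KO libraries, and the groups overlapped. For all KO against all WT reads the ratio was 0.00109 (95% exact interval 0.000225 to 0.00319), and for WT replicate 1 against WT replicates 2 to 4 it was 0.00111 (2.82e-05 to 0.00622). Both intervals cover counting error only. A count of 0 in a KO library does not exclude a low level of the transcript.

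The count filter left Rps13-ps1 out of the main test, since 3 libraries held more than a few reads. Without a filter it passed as lower in KO (adjusted p = 1.93e-05 in edgeR). With the filter kept, the row could be tested when WT replicate 1 or a KO library was left out. It then passed without WT replicate 1 (adjusted p = 1.97e-08 in edgeR). Without 1 KO library the adjusted p was 0.252 to 0.396 in edgeR. In each case the filter was met only through WT replicates 2 to 4. WT replicate 1 was the only WT library near 0, so the pass without it followed from which library was left out. The fitted fold change depends on the prior count and is not given.

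In WT replicates 2 to 4, Rps13-ps1 took 23.0%, 25.2% and 19.3% of the reads counted to Rps13 and its pseudogenes, and in the other 5 libraries at most 0.0596%. Rps13 had 199 to 230 CPM in WT replicates 2 to 4, 193 CPM in WT replicate 1 and 180 to 218 CPM in KO. Rps13-ps2 had 17.9 to 23.6 CPM in WT replicates 2 to 4 and 16.6 CPM in replicate 1. The sum of the 2 pseudogene rows was 16.7 CPM in WT replicate 1, 74.0 to 98.5 CPM in the other WT libraries and 27.8 to 39.5 CPM in KO. Of the same 13350 genes compared with Rpl39-ps, Gm12840, a long noncoding RNA on chromosome 4 that was named after its values were seen, was the most like Rps13-ps1 (Pearson r 0.993 over the 8 libraries). It had 5.71, 3.76 and 2.92 CPM in WT replicates 2 to 4 and 0 in WT replicate 1 and all KO libraries.

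**Figure D5:**
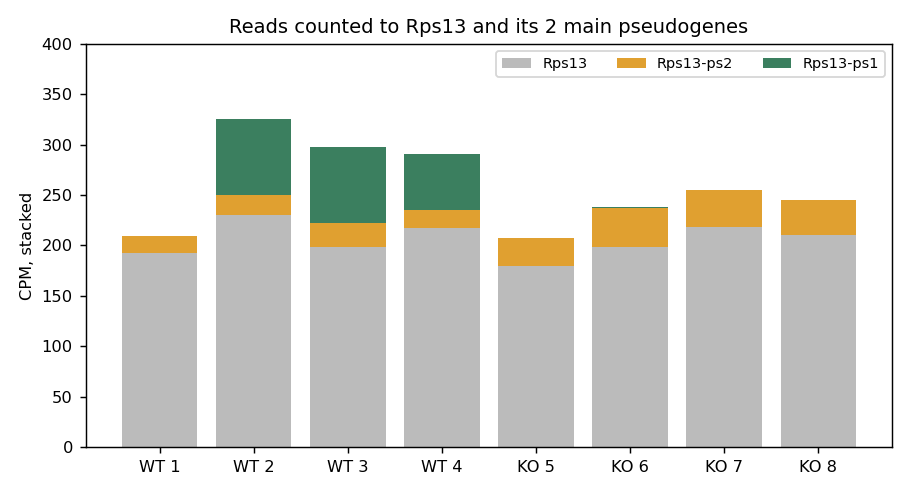
Stacked bars give the CPM counted in each library to Rps13 (grey), Rps13-ps2 (yellow) and Rps13-ps1 (green). The green part is visible in WT replicates 2 to 4 only, where Rps13-ps1 had 56.1 to 75.1 CPM, and the yellow part is larger in the KO libraries.

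The other tested pseudogenes of large-subunit genes overlapped between the genotypes, and none passed. Rpl3-ps1 (chromosome X, 99.8% identical to Rpl3, whose protein lies near the peptidyl transferase centre) spread widely within both groups, with 43, 21, 101 and 21 counts in WT and 16, 112, 127 and 72 in KO. Its level ranged 1.61 to 8.25 CPM within WT and 1.12 to 9.96 CPM within KO, so the log2 fold change of 0.72 ± 0.57 (SE) was near its error. Rpl35a-ps4 had 18, 52, 55 and 43 counts in WT and 73, 53, 63 and 58 in KO (log2 fold change 0.43 ± 0.31, SE). As a share of the reads on its own row and that of Rpl35a it was 3.36% ± 1.24 (SD, n = 4) in WT libraries and 5.30% ± 0.645 (SD, n = 4) in KO libraries. On this measure the 4 KO values lay above the 4 WT values, as in 3 of the 28 tested pairs, with KO below in 0. The other pairs of these 3 were those of Rpl39-ps and Rps13-ps2, whose groups did not overlap in CPM either. No such figure over all genes was computed for this measure, so the count is a description only. In CPM the groups of Rpl35a-ps4 overlapped, and Rpl35a itself had a log2 fold change of -0.23 ± 0.14 (SE).

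Rpl31-ps8, identical to Rpl31, had 224 counts in WT replicate 1, 436 to 487 in the other WT libraries and 452 to 545 in KO (log2 fold change 0.20 ± 0.20, SE). Rpl31-ps1, with 97.1% identity and 86.9% of windows its own, had 18 counts in WT replicate 1, 42 to 52 in the other WT libraries and 46 to 61 in KO (0.23 ± 0.31). The 2 copies of Rpl31 thus shared the low WT replicate 1, which Rpl31 itself did not show, with 1740 counts in that library and 1696 to 1800 in the other WT libraries.

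Rpl9-ps6, annotated as protein-coding, had 236 counts in WT replicate 1, 516 to 668 in the other WT libraries and 469 to 571 in KO (-0.04 ± 0.25, SE). Rpl10-ps3, also annotated as protein-coding and a copy of Rpl10, which joins the large subunit late in its assembly, had 63 counts in WT replicate 1, 154 to 209 in the other WT libraries and 170 to 210 in KO (0.27 ± 0.27). Rpl10a-ps1 had 70 counts in WT replicate 1, 171 to 179 in the others and 162 to 225 in KO (0.19 ± 0.24). In all 3 the KO libraries lay within or next to the range of WT replicates 2 to 4.

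Rpl28-ps1, identical to Rpl28, ranged from 79 to 230 counts in WT and from 129 to 356 in KO, with the highest value in KO replicate 5 (0.28 ± 0.31, SE). Rpl28 was also highest there, with 3490 counts against 1849 to 2417 in the other libraries. Rpl14-ps1 (-0.10 ± 0.21), Rpl17-ps5 (0.43 ± 0.35), Rpl18-ps1 (0.35 ± 0.32) and Rpl18-ps2 (-0.11 ± 0.38) did not pass. Nor did Rpl5-ps1 (0.15 ± 0.36), a copy of the gene whose protein carries 5S rRNA to the ribosome, Rpl22-ps1 (0.14 ± 0.41), Rpl27a-ps2 (-0.17 ± 0.48) or Rpl38-ps2 (0.03 ± 0.27).

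Among pseudogenes of small-subunit genes, Rps24-ps3 had the lowest log2 fold change of the 28. This copy of Rps24 on chromosome X (chrX:79195047-79195448) had 229, 306, 270 and 236 reads in WT against 183, 214, 232 and 213 in KO. The lowest WT library (18.1 CPM) was below the highest KO libraries (18.2 and 18.6 CPM). In edgeR the log2 difference was -0.42 ± 0.17 (SE) at an adjusted p of 0.735. Rps24 had a value of -0.21 ± 0.12.

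Rps16-ps2, identical to Rps16, had 123 counts in WT replicate 1, 278 to 338 in the other WT libraries and 260 to 354 in KO (0.07 ± 0.24, SE). Rps15a-ps6 (71 counts in WT replicate 1, 175 to 255 in the other WT libraries and 135 to 193 in KO, -0.20 ± 0.30) and Rps10-ps1 (57, 115 to 192 and 94 to 143 in the same order, -0.18 ± 0.29) had the same low library. Rps15-ps2, a copy of the gene for a protein near the decoding site, had 53 to 84 counts in WT and 34 to 81 in KO (-0.32 ± 0.26).

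Of the remaining small-subunit copies, Rps12-ps10 stood at 0.10 ± 0.32 and Rps12-ps1 at 0.67 ± 0.62 (log2 fold change, SE). Rps12-ps1 had 1 to 20 counts in the KO libraries alone. Rps19-ps3, named after a gene that is mutated in Diamond-Blackfan anaemia, stood at 0.31 ± 0.41. The copies of Rps6, a target of S6 kinases, stood at -0.16 ± 0.39 (Rps6-ps3) and -0.18 ± 0.34 (Rps6-ps4). Adjusted p-values of the 26 tested members other than Rpl39-ps and Rps13-ps2 ran from 0.735 to 0.989 in edgeR.

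Of the 135 members below the count filter, 134 besides Rps13-ps1 had at most 76 counts in all. With Rps13-ps1, 25 untested members had at least 20 counts summed, and in 2 of them all KO values in CPM lay below all WT values, beside 2.72% of the 2241 untested genes with such counts in either direction. Rps26-ps1, in an intron of Wwp2 on the opposite strand, held 11, 8, 10 and 7 counts in WT and 1, 7, 6 and 4 in KO, with 0.538 CPM in the lowest WT library and 0.497 CPM in the highest KO library. Rps15a-ps8 (chr4:53791070-53791456, minus strand) held 9, 5, 6 and 6 counts in WT and 2, 3, 3 and 4 in KO. Without a count filter the log2 fold changes were -1.08 and -1.17, each with an adjusted p of 0.783 in edgeR.

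Rps15a-ps8 differs more from its source gene than the copies shown above, with 92.2% identity to Rps15a and 90.5% of 50-base windows found in no other transcript. The first 120 bases of the coding sequence (chr4:53791337-53791456) are shown as a contrast to Rpl39-ps, with the 15 differing positions in capitals.

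Rps15a: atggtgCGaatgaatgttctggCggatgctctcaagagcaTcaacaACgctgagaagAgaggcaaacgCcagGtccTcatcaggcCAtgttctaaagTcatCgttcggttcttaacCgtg

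Rps15a-ps8: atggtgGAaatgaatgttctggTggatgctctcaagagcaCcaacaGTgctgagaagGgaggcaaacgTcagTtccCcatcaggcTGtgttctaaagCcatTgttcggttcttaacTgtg

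The ribosomal protein genes are the intact members of the family. Of the 78 in the count table, 0 passed in edgeR or in DESeq2. At an unadjusted p under 0.05 in edgeR there were 6 of the 78, beside 6.4% of all genes tested. Of their log2 fold changes, 15 were positive and 63 negative (median -0.10), beside 6594 positive and 6742 negative over all genes tested. The ribosomal protein genes with the smallest p were Rpl35 (-0.35 ± 0.12, SE), Rpl38 (-0.43 ± 0.15), Rps16 (0.33 ± 0.13), Rpl41 (-0.28 ± 0.12) and Rpl22 (-0.28 ± 0.13), with adjusted p-values from 0.725 to 0.772 in edgeR. The 7 tested paralogs, genes such as Rpl3l that encode variant ribosomal proteins, had a median of 0.0081, and 282 other pseudogenes had a median of -0.02. Rpl24 was not analysed here.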

How the data were processed

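Left ventricle RNA went through a stranded poly(A) library kit, per the labels' protocols. The submitters' processing notes name STAR 2.7.1a as aligner and GRCm38 (mm10) as genome. What the authors deposited is a table of raw counts, whole numbers per Ensembl gene with no normalization. How reads were counted, by which annotation release and strand setting, and what became of reads with several matches is not given in the sources used here, and the last point sets the level of near-identical copies. Column names gave the sample of each column. No pair of libraries among the 28 was alike within sampling noise (chi-square of 10.8 to 55.5 for each degree of freedom).

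Symbols, positions, transcripts and coding sequences came from GENCODE M21, on GRCm38, and 36345 of 38293 identifiers matched. Pseudogenes were aligned with Biopython 1.88 to the best-matching transcript of the gene in their name, and for the sequences shown to its coding sequence. Windows of 50 and 100 bases were searched in all annotated transcripts, in the transcript's own orientation, and not in the genome.

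The count filter was edgeR's filterByExpr with a minimum count of 10. Libraries were scaled by TMM, and edgeR 4.0.16 (R 4.3.3) gave two-sided quasi-likelihood tests of genotype, with no other covariate. P-values were adjusted by Benjamini and Hochberg's method across all 13336 genes tested, at a threshold of 0.05. CPM uses TMM-scaled library sizes, and 0.5 was added before logs in correlations. The test was checked on simulated data, in which 200 genes with a mean of at least 10 counts were changed. It recovered 22.4% of those changed 1.5-fold, 70.3% of those changed 2-fold and 100% of those changed 4-fold, with 8 false calls. A member that did not pass may therefore still differ by a small fold.

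The members and lists were chosen with earlier results of these data known. Named are all members that pass the filter, that pass the threshold in any fit, or whose groups do not overlap with at least 20 counts, and their source genes. A sequence match of 1 member is not reported here. Alternatives tried were other scalings (library totals, size factors of DESeq2), other tests (DESeq2 1.42.0 and limma-voom from limma 3.58.1), other filters (none, or 1 CPM in 4 libraries), an adjusted p of 0.10, each library left out, pseudogene and source gene added, and another denominator for the share of counts.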

Additional observations from a re-analysis of the deposited data

Results flagged for a closer look

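In 116 groups of 4 libraries, 10 held a library far from the others by the gap rule of Dixon's test, where chance flags about 1 in 20. There was 1 group per genotype for each named gene, and for the shares of counts on members and on ribosomal protein genes. Among pseudogenes, Rps16-ps2 was lowest in WT replicate 1 at 9.88 CPM, where WT replicates 2 to 4 had 25.5 to 27.6. Rps15a-ps8 was highest in WT replicate 1 at 0.723 CPM, against 0.461 to 0.490. Rps15-ps2 was highest in WT replicate 2 at 7.74 CPM, against 4.26 to 4.61. In KO, Rpl10-ps3 was lowest in replicate 5 at 13.3 CPM, against 14.9 to 15.1, and Rpl35a-ps4 was lowest in replicate 6 at 3.76 CPM, against 4.94 to 5.11.

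Among the source genes, Rps15 was highest in WT replicate 2 at 433.5 CPM, where the rest of WT had 358.5 to 365.5. In KO replicate 5, Rpl27a reached 91.6 CPM, against 47.7 to 49.4, and Rpl10a 68.9 CPM, against 53.2 to 55.8. Rpl31 was highest in KO replicate 7 at 164.1 CPM, against 136.7 to 138.6, and Rps6 was lowest in KO replicate 6 at 85.6 CPM, against 92.5 to 93.8.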

How the results depend on the processing

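Rpl39-ps was higher in KO and passed the threshold under every alternative run on its own row (log2 fold change 2.50 to 2.90). All these fits drew on the same libraries, and those with a count filter kept the row through its KO libraries. The repeated passes are therefore not independent of each other or of the main test. DESeq2 called 11 genes, 2 of them members, and edgeR without a filter called 10, 3 of them members. Leaving out 1 library gave 2 to 6 genes and 1 to 2 members. With ribosomal protein genes and pseudogenes as the denominator, members took a mean share of 1.997% (SD 0.156, n = 4) across the KO libraries. The WT mean was 1.978% (SD 0.635, n = 4). The difference of 0.0185 percentage points (KO minus WT) was smaller than either SD. Its sign was opposite to that for the share of all library counts, where the WT mean was the higher one. No paired analysis was possible because the groups share no replicate numbers.

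Of 29 pseudogenes, 16 changed sign on their own row under some alternative, and 6 more, Rpl39-ps among them, only when added to their source gene. Sums were paired by name. Rpl18-ps1, also among these 6, was so added to Rpl18, to which little of its sequence aligned. Of 25 source genes, 10 changed sign. When a pseudogene was added to its source gene, which holds most reads, the log2 fold change was -0.12 for Rpl39-ps, -0.0072 for Rpl10-ps3, -0.25 for Rps12-ps10, -0.20 for Rpl35a-ps4, -0.068 for Rpl17-ps5, -0.17 for Rpl5-ps1, -0.42 for Rpl38-ps2, -0.0054 for Rpl18-ps1, 0.25 for Rpl27a-ps2, -0.28 for Rpl22-ps1 and -0.25 for Rps12-ps1. With limma-voom it was 0.074 for Rpl9-ps6, 0.053 for Rpl27a-ps2, -0.00096 for Rps10 and 0.00046 for Rpl3. With library totals, which moved the median of all genes to -0.05, it was -0.025 for Rpl38-ps2, -0.037 for Rpl31, -0.018 for Rpl10a and -0.044 for Rps10. The causes were not tested.

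Leaving out 1 library at a time gave values on both sides of 0 for these pseudogenes: Rpl10a-ps1 from -0.053 to 0.33, Rpl14-ps1 from -0.24 to 0.046, Rpl18-ps2 from -0.25 to 0.087, Rpl22-ps1 from -0.10 to 0.46, Rpl27a-ps2 from -0.49 to 0.14, Rpl31-ps1 from -0.027 to 0.42, Rpl31-ps8 from -0.0081 to 0.30 and Rpl38-ps2 from -0.074 to 0.13. The same held for Rpl5-ps1 from -0.14 to 0.31, Rpl9-ps6 from -0.29 to 0.12, Rps10-ps1 from -0.43 to 0.067, Rps12-ps10 from -0.16 to 0.31, Rps15a-ps6 from -0.47 to 0.0197, Rps16-ps2 from -0.18 to 0.19, Rps6-ps3 from -0.44 to 0.092 and Rps6-ps4 from -0.33 to 0.045. Among source genes the ranges were -0.11 to 0.011 for Rpl10, -0.062 to 0.0698 for Rpl10a, -0.094 to 0.051 for Rpl18, -0.023 to 0.36 for Rpl27a, -0.11 to 0.077 for Rpl3, -0.059 to 0.085 for Rpl31, -0.12 to 0.042 for Rpl9, -0.15 to 0.084 for Rps10, -0.13 to 0.065 for Rps15 and -0.15 to 0.026 for Rps6.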
